A study of Mus musculus with 14 samples.

Results

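The genes described here encode the protein import machinery of mitochondria, the carriers of their inner membrane, and proteins of mitochondrial shape and quality control. Members were chosen by symbol: those starting with Tomm, Timm, Slc25a, Chchd, Phb or Micos, and the symbols Fis1, Pink1 and Samm50. The rule found 47 of the 7756 genes in the table. They are 4 subunits of the translocase of the outer membrane (TOM), 7 subunits of the translocases of the inner membrane (TIM), 23 carriers (Slc25a), 6 coiled-coil-helix proteins (Chchd), and 7 genes of sorting, cristae, prohibitins, fission and quality control. The same rule also names the porins Vdac1 to Vdac3, the fusion genes Mfn1, Mfn2 and Opa1, the fission gene Dnm1l and the receptor Tomm20. These are not among the genes in the table and are not analysed here. Per the study's methods, the table holds genes that passed limits on counts and on signal relative to control. All 47 members passed the filter on low counts, a mean count of at least 40 in each group.

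Hippocampal RNA was sequenced from 14 libraries of male C57BL/6J wild-type (WT) mice aged 8 weeks, kept for 28 days under one of 3 oxygen conditions. In intermittent hypoxia (IH, n = 5) oxygen alternated between 10% and 21% in cycles of 2 min for 8 h per day. In sustained hypoxia (SH, n = 5) it was 10% for 8 h per day, and in the control group (n = 4) it was 21%. The study's methods place the control mice in a preliminary experiment, so hypoxia and experiment cannot be told apart in a difference from control. IH and SH were exposed in the same study, with different gas delivery systems. Oxygen pattern and apparatus cannot be told apart in a difference between them. Hippocampi were collected after behavioral testing, the labels do not tie a library to one animal, and p-values measure the spread between these libraries. The 2 hypoxia groups were each compared with the same 4 control libraries, and IH was compared with SH directly.

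Most mitochondrial proteins are made in the cytosol and enter through the TOM pore. Precursors with a presequence then pass the TIM23 channel, carrier proteins are escorted across the intermembrane space by small TIM chaperones, and small cysteine-rich proteins are trapped there by the oxidoreductase CHCHD4. Once inserted, SLC25 carriers exchange nucleotides, substrates and cofactors across the inner membrane. In neurons this traffic supplies ATP to synapses, and the aspartate-glutamate carrier works in the malate-aspartate shuttle, which passes reducing equivalents from the cytosol to the respiratory chain.

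Chchd10, Slc25a23 and Pink1 were called lower than control in both hypoxia groups, which were compared with the same control libraries. The share of all genes called lower in both was not counted. Only Chchd10 kept both calls after removal of each library's trends on transcript length and GC content, described below. The letters upstream of the start sites of these 3 genes are shown because both comparisons met on them. The sequences are RefSeq promoter windows of build GRCm38.p6, read 5′ to 3′ along the gene and ending 1 base before the start site. Capitals mark matches to the motifs given after them. The Chchd10 window is chr10:75932880-75933129 on the plus strand, the Slc25a23 window is chr17:57059864-57060113 on the minus strand, and the Pink1 window is chr4:138326297-138326546 on the minus strand.
Chchd10: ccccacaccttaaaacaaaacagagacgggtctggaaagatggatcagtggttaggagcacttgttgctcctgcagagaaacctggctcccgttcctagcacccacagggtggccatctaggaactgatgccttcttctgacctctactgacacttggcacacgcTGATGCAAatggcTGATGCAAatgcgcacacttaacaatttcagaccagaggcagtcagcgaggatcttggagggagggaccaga
Slc25a23: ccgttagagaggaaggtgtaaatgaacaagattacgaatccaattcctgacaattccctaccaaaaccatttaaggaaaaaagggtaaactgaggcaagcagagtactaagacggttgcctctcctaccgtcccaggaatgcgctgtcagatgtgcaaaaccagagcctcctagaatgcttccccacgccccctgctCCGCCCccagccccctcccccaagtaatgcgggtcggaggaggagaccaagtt
Pink1: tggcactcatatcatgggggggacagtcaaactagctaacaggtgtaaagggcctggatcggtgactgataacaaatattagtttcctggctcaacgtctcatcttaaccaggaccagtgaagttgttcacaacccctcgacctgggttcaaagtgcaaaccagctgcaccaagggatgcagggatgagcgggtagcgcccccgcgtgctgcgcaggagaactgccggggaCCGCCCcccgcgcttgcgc

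The windows of 300 bases, 250 before and 50 after the start site, were matched by symbol to 39 of the 47 members, with 45 distinct windows, and 6 motifs were searched on both strands. The letters TGATGNAA, the composite site of ATF and C/EBP factors, occurred at -85 and again at -72 in the Chchd10 window (TGATGCAA, first base counted from the start site), in no other member window, and in 3.91% of all 32544 promoter windows. The GC box GGGCGG was found at -53 for Slc25a23 and at -19 for Pink1, both times on the opposite strand (CCGCCC), in the windows printed. A second RefSeq window of Slc25a23, chr17:57059843-57060092 before its own start site, held it at -74 on the opposite strand and at -14 on the forward strand. It was held by 30 of 45 member windows (66.7%) and by 35.9% of all windows. The ETS letters CCGGAAG were in 9 member windows (20%, all windows 8.91%), and the estrogen-related receptor letters AAGGTCA in 5 (11.1%, all windows 4.71%). The hypoxia response core ACGTG was in 9 (20%, all windows 19.7%) and in none of the 3 printed windows, and the nuclear respiratory factor letters GCGCATGCG were in 1, that of Timm13 (all windows 1.76%). A match is a description of letters and not a site.

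Before the members are compared, properties of the libraries are given. Total counts were between 7203659 and 11777101 per library. Hippocampal pyramidal neuron markers (8 of 8 in the table) summed, in normalized counts, to 136254 to 151640.0 in the control libraries, 122390.0 to 146348 in IH and 116642 to 146686 in SH, so markers of the labelled tissue were present in every library. Choroid plexus markers (16 of 16) summed to 4090.2 to 125654, 5160.1 to 76433 and 4747 to 93194, a wide range within every group, and no group was free of them. Erythrocyte markers (5 of 5) summed to 2926 to 3189 in control, 1649 to 2305 in IH and 2203 to 3081 in SH, with all IH libraries below all control libraries. Microglia markers (2 of 6) summed to 3121 to 3369, 2960.2 to 3456 and 2366 to 3072 in the same order, with all SH libraries below all control libraries. Dentate granule cell markers (6 of 7) summed to 5878 to 7986, 7699.8 to 13168 and 7757 to 13726, and oligodendrocyte markers (5 of 6) to 69736 to 104212, 80045 to 182297 and 79565 to 138257, both with overlapping groups and higher medians in hypoxia. The other markers, of inhibitory neurons, astrocytes, endothelium, and thalamus and striatum, overlapped between the groups. The part of these cell types in the members' results was not tested, other than by the choroid plexus covariate. Libraries also differed in how counts depended on the GC content of the transcript: the slope of the log2 level per percent GC was between 0.00226 and 0.0218 in control, between -0.00542 and 0.000695 in IH and between -0.0165 and 0.00487 in SH. The slope per doubling of transcript length was between -0.0607 and -0.000886 in control and between 0.00676 and 0.0211 in SH. Within IH, replicate 3 stood apart with a slope of -0.0844, against 0.0191 to 0.0384 in the other IH libraries. Its short members were high for that group, with a median deviation of 0.16, beside -0.015 to 0.24 in the control libraries. Results are therefore also given after removal of each library's trends on length and GC content, and without IH replicate 3. In bulk tissue, fewer cells of a type and less RNA per cell cannot be told apart.

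More members were called lower than higher in both hypoxia groups. In IH vs. control, 5 of 47 members were called lower at an adjusted p under 0.05, against 4.85% of all 7338 genes tested, and 0 were called higher, against 6.08% (edgeR's quasi-likelihood test, Benjamini-Hochberg adjusted over all genes tested). Of the members, 14 had an unadjusted p under 0.05 in that comparison, in either direction, against 29.8% of all genes, and DESeq2 called 1 higher, against 8.5%. In SH vs. control, 14 members were called lower, against 10.5% of all genes, and 1 was called higher, against 10.2%. The median log2 fold change of the members was -0.12 in IH and -0.17 in SH, beside -0.015 and 0.00354 over all genes tested. Below 0 were 36 members in IH and 34 in SH. Between the hypoxia groups themselves, IH vs. SH, 1 member was called higher and 1 lower, against 1.47% and 0.899% of all genes, and the median was 0.00133.

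Viewed library by library, the median deviation of the 47 members from their mean log2 level was 0.061 to 0.16 in the control libraries, -0.13 to 0.071 in IH and -0.12 to 0.056 in SH. All 4 control libraries lay above all 5 SH libraries. They also lay above 4 of 5 IH libraries, and the exception, IH replicate 3 at 0.071, passed control replicate 4 at 0.061.

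The call counts were lower after the length and GC trends of the libraries were removed together. With each library's length and GC trends removed, 2 members stayed called lower in IH vs. control (Chchd10 and Slc25a12) against 2.96% of all genes, and 4 in SH vs. control (Chchd10, Tomm7, Timm9 and Slc25a4) against 3.2%. The median of the members then stood at -0.042 in IH and -0.093 in SH over the 46 members with a known transcript. Before that step, the 23 members of higher GC content had a median of -0.15 in IH and -0.22 in SH, and the 23 of lower GC content had -0.069 and -0.014. All genes split at the same GC content had -0.13 against 0.10 in IH and -0.17 against 0.14 in SH, the same order as the members. Across the 46 members, Pearson's r between fold change and GC content was -0.41 in IH and -0.40 in SH. Across 7307 genes it was -0.42 and -0.51. With the trends removed it turned to 0.17 in IH and 0.23 in SH across the members, beside 0.0098 and 0.028 across the 7307 genes. These points share libraries and base composition, and genes are not independent replicates. Without IH replicate 3, 8 members were called lower in IH vs. control against 6.6% of all genes, and 15 in SH vs. control against 11.2%. With the choroid plexus level as a covariate the counts were 5 against 4.24% of all genes and 13 against 9.72%.

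**Figure D1:**
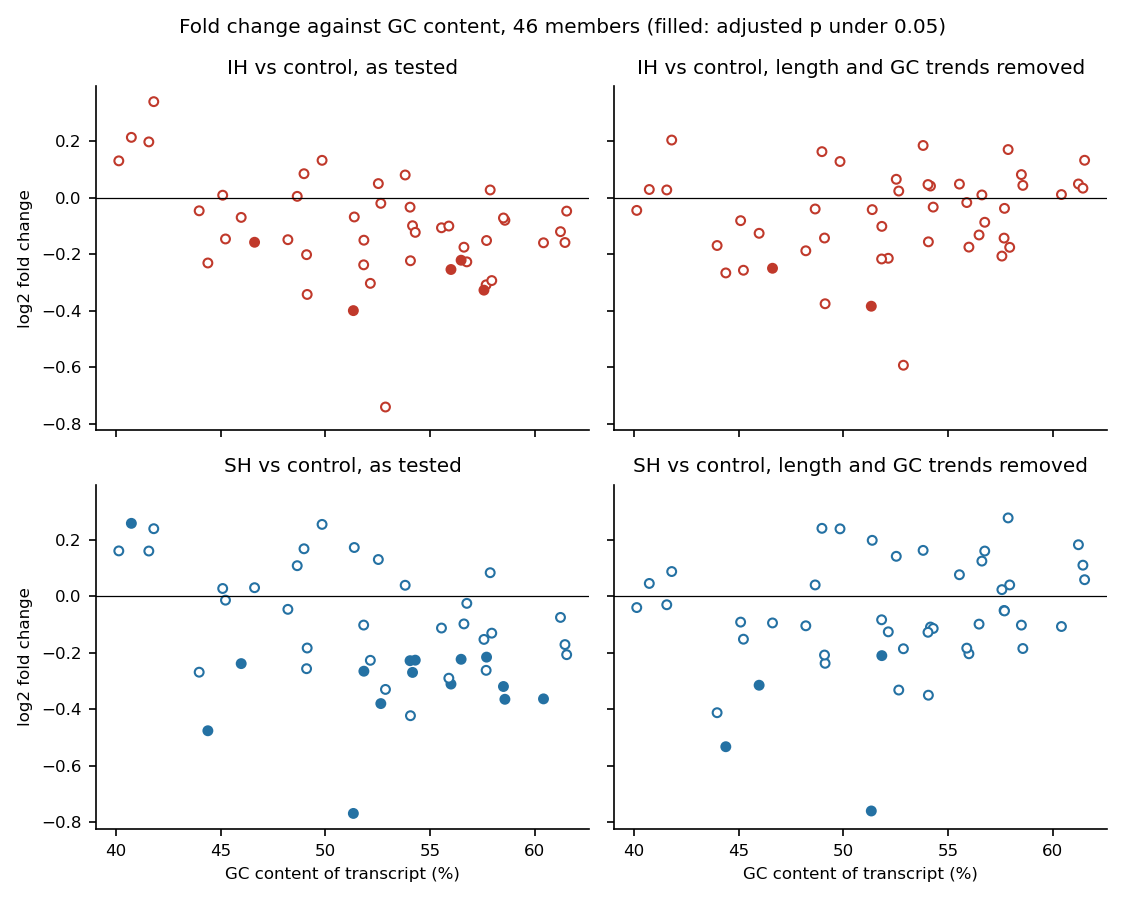
Log2 fold change of 46 members (vertical axis) against the GC content of their transcript in percent (horizontal axis) in IH vs. control and SH vs. control, as tested and with each library's length and GC trends removed. Filled points passed an adjusted p of 0.05: 5 and 15 as tested, and 2 and 4 after removal. The downward slope towards high GC content was not seen after removal, when Pearson's r was 0.17 in IH and 0.23 in SH.

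Among the coiled-coil-helix proteins, Chchd10 fell furthest of all called members in both comparisons. CHCHD10 is a protein of the intermembrane space, a paralog of CHCHD2, known for mutations in motor neuron disease and frontotemporal dementia, and its gene lies on chromosome 10 from 75768964 to 75774713 (GRCm39). Its normalized counts were 2589.9, 2458, 2252 and 2713 in the control libraries, 1905, 1758, 2078, 1919 and 1823 in IH and 1868, 1322, 1473, 1381 and 1297 in SH. The control libraries were all above all 10 hypoxic libraries, and SH replicate 1, the highest of its group, was the only SH library within the IH range. The control group averaged 2503 ± 197 (SD, n = 4), the IH group 1896 ± 120 (SD, n = 5) and the SH group 1468 ± 233 (SD, n = 5). IH vs. control gave a log2 fold change of -0.40 (SE 0.10, adjusted p = 0.0163, edgeR), and SH vs. control gave -0.77 (SE 0.10, adjusted p = 0.000289, edgeR). IH was above SH by 0.37 (SE 0.092, adjusted p = 0.0454, edgeR). With length and GC trends removed the 3 values were -0.38 (adjusted p = 0.022, edgeR), -0.76 (adjusted p = 0.000282, edgeR) and 0.38 (adjusted p = 0.031, edgeR). The call in SH held under all 24 alternatives, the call in IH under 22, and the difference between IH and SH under 8, with adjusted p-values between 0.00373 and 0.114. The IH call was lost without control replicate 1 or control replicate 4 (adjusted p up to 0.0515).

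The paralog Chchd2, linked to familial Parkinson's disease, was also called lower in SH. It had 3544, 3725, 3667 and 3182 in the control libraries, 3274, 3206, 3709.7, 3133 and 3150.0 in IH and 3052, 2893, 3075, 2708 and 2910.1 in SH normalized counts. Every SH library was below every control and every IH library, while IH replicate 3 reached the level of control. Its log2 fold change was -0.27 (SE 0.064, adjusted p = 0.00949, edgeR) in SH and -0.10 (SE 0.064, adjusted p = 0.303, edgeR) in IH, and it was -0.11 (adjusted p = 0.171, edgeR) in SH with the trends removed. Chchd2 has 4 near-identical copies in the annotated transcripts (at least 95% identity over at least 150 bases), so its count is uncertain. Chchd4, the oxidoreductase of the disulfide relay that imports both paralogs, ranged over 509 to 647 in control, 461 to 581 in IH and 488 to 619.7 in SH, and neither its value of -0.15 (adjusted p = 0.295) in IH nor that of -0.014 (adjusted p = 0.933) in SH passed (edgeR). Chchd5, Chchd6 and Chchd7 passed in neither comparison. The lowest of their values was that of Chchd6, a subunit of the cristae-organizing MICOS complex, at -0.31 in IH (SE 0.12, adjusted p = 0.0914, edgeR).

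**Figure D2:**
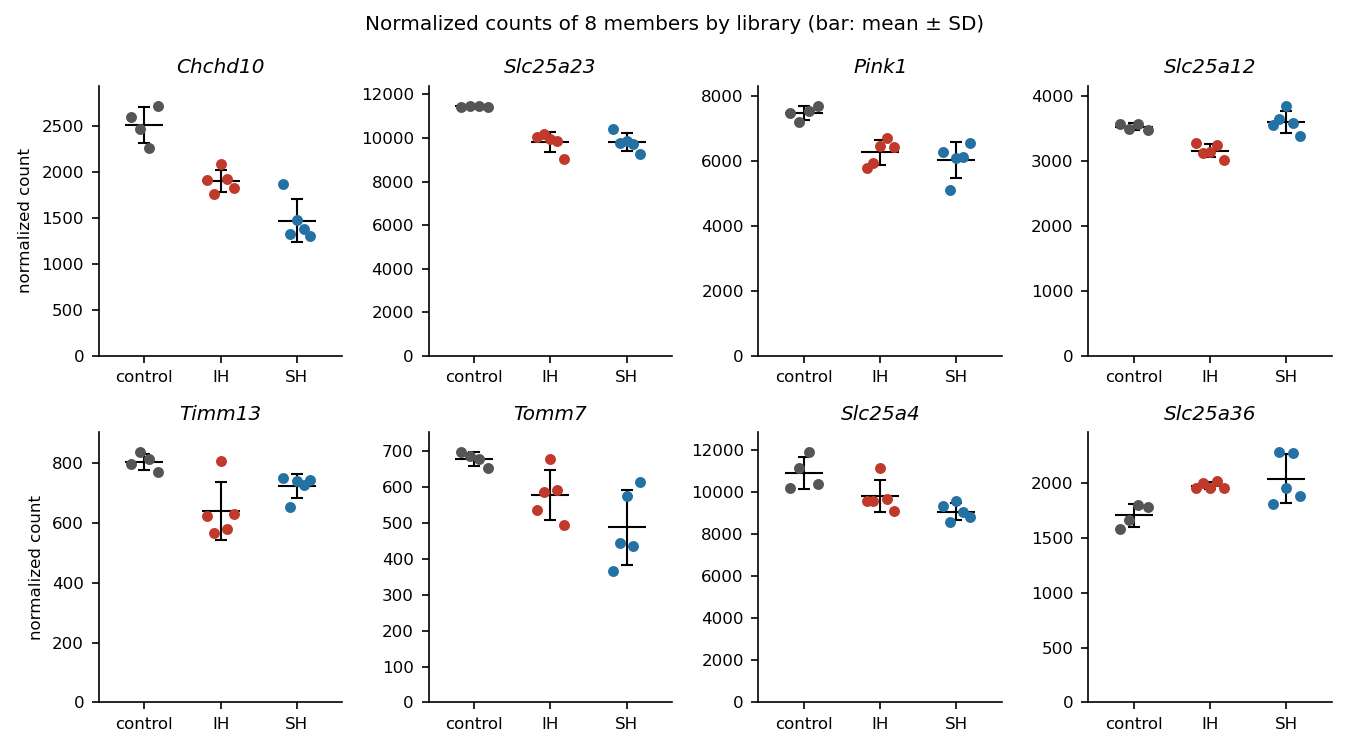
Normalized counts (vertical axes, from 0) of 8 members in each library of the control, IH and SH groups, with the mean and SD as black bars. The 4 control libraries sit above all hypoxic libraries for Chchd10, Slc25a23 and Pink1, above all IH libraries for Slc25a12, and below all hypoxic libraries for Slc25a36.

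Among the carriers, Slc25a23 was called lower in both hypoxia groups and Slc25a12 in IH. Slc25a23 encodes a calcium-dependent carrier that exchanges ATP-Mg for phosphate, and lies on chromosome 17 from 57350705 to 57366905. Its normalized counts were 11422, 11466, 11456 and 11431 in the control libraries, 10053, 10159, 9943, 9857 and 9049.9 in IH and 10403, 9785, 9872, 9702 and 9252 in SH. The control values were within a narrow band above all 10 hypoxic libraries, IH replicate 5 was the lowest of its group, and IH and SH overlapped. The log2 fold change was -0.22 (SE 0.052, adjusted p = 0.0141, edgeR) in IH and -0.22 (SE 0.052, adjusted p = 0.00834, edgeR) in SH, with an IH vs. SH value of 0.00133 (adjusted p = 0.997). With the trends removed the values were -0.13 (adjusted p = 0.115, edgeR) in IH and -0.10 (adjusted p = 0.228, edgeR) in SH, past the threshold in neither. Its paralog Slc25a24 was among the lowest members, at 68.6 to 79.2, 53.6 to 95.1 and 41 to 74.2 normalized counts in control, IH and SH, and its fold changes of -0.047 and -0.27 did not pass (adjusted p = 0.901 and 0.41, edgeR).

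Slc25a12, the aspartate-glutamate carrier of the malate-aspartate shuttle, differed between IH and SH. It lies on chromosome 2 from 71101407 to 71198167, and its normalized counts were 3565, 3489, 3572 and 3467 in the control libraries, 3276, 3122, 3131, 3236 and 3019 in IH and 3548, 3639, 3842, 3577 and 3383 in SH. All IH libraries were below all control and all SH libraries, and SH overlapped with control. IH vs. control gave a log2 fold change of -0.16 (SE 0.047, adjusted p = 0.0423, edgeR) and IH vs. SH gave -0.19 (SE 0.044, adjusted p = 0.0373, edgeR), whereas SH vs. control was 0.030 (SE 0.047, adjusted p = 0.68, edgeR). After removal of the trends the IH value was -0.25 (adjusted p = 0.00653, edgeR) and the SH value -0.095 (adjusted p = 0.243, edgeR), and the difference between IH and SH was -0.16 (adjusted p = 0.0719, edgeR). Each of the IH vs. control and IH vs. SH calls held under 11 of 24 alternatives, with adjusted p-values up to 0.0977 and 0.111, and neither held without IH replicate 3, when the values were -0.16 (adjusted p = 0.0501, edgeR) and -0.19 (adjusted p = 0.0599, edgeR). The partner in the shuttle, the oxoglutarate carrier Slc25a11, ranged over 1679 to 1845 normalized counts in the control libraries, 1479 to 1747 in the IH libraries and 1345 to 1677 in the SH libraries. It was called lower in SH (-0.23, SE 0.069, adjusted p = 0.0308, edgeR) and not in IH (-0.12, SE 0.069, adjusted p = 0.236, edgeR). The IH vs. SH value was 0.10 (adjusted p = 0.504, edgeR). With the trends removed the SH value was -0.11 (adjusted p = 0.239, edgeR). The SH call was also lost without SH replicate 2, 4 or 5 and without control replicate 1, 3 or 4.

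Slc25a4, the ADP/ATP carrier of muscle and brain and the most abundant member per kilobase of transcript, was called lower in SH. Its normalized counts were 10199.5, 11129.8, 11886 and 10399 in the control libraries, 9577, 9592, 11125, 9683 and 9124 in IH and 9327, 8597, 9585, 9036 and 8811 in SH. Every control library was above every SH library, and IH overlapped with control through IH replicate 3. The fold change (log2) was -0.27 (SE 0.067, adjusted p = 0.013, edgeR) in SH and -0.15 (SE 0.067, adjusted p = 0.143, edgeR) in IH. The SH call held under all 24 alternatives, including -0.21 (adjusted p = 0.0236, edgeR) with the trends removed. Without IH replicate 3 the IH value was -0.20 (adjusted p = 0.0416, edgeR).

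Slc25a39, a carrier needed for glutathione import, was called lower in SH with 1045, 1070.2, 979 and 1269.8 in the control libraries, 973, 949.6, 1057, 1127 and 1049.7 in IH and 1012, 749, 746, 932 and 794 in SH normalized counts. Of the SH libraries, only replicate 1 reached the range of control, whereas IH overlapped with control. The log2 fold change was -0.36 (SE 0.10, adjusted p = 0.0211, edgeR) in SH and -0.080 (SE 0.10, adjusted p = 0.616, edgeR) in IH, and the SH value was -0.19 (adjusted p = 0.238, edgeR) with the trends removed. Its paralog Slc25a40 did not pass, at 0.13 (adjusted p = 0.505) in IH and 0.16 (adjusted p = 0.391) in SH (edgeR).

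The other carriers called lower in SH are named to complete the count, after their values were seen. They were the citrate carrier Slc25a1 (-0.36, adjusted p = 0.0296), the glutamate carriers Slc25a18 (-0.38, adjusted p = 0.0305) and Slc25a22 (-0.22, adjusted p = 0.0498), and the pyrimidine nucleotide carrier Slc25a33 (-0.23, adjusted p = 0.0383, all by edgeR). None of these 4 passed in IH, where the log2 fold changes were -0.16, -0.021, -0.15 and -0.034 in the same order, and none passed in either group with the trends removed. The IH vs. SH differences of these 4 did not pass either (adjusted p between 0.106 and 0.755, edgeR).

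Slc25a36, the paralog of Slc25a33 that also carries pyrimidine nucleotides, moved the other way and was the only member called higher than control. Its normalized counts were 1577, 1658, 1801 and 1782 in the control libraries, 1951, 2004, 1954, 2020.3 and 1950.5 in IH and 1808, 2278, 1952, 2274 and 1881 in SH. All hypoxic libraries were above all control libraries. On the log2 scale the fold change was 0.26 (SE 0.073, adjusted p = 0.0231, edgeR) in SH and 0.21 (SE 0.073, adjusted p = 0.0715, edgeR) in IH. It has one of the lowest GC contents among the members (40.7%), and with the trends removed the SH value was 0.045 (adjusted p = 0.673, edgeR) and the IH value 0.028 (adjusted p = 0.815, edgeR). Slc25a36 has 1 near-identical copy, so its count is uncertain. The mitochondrial iron importers Slc25a28 and Slc25a37 did not pass: Slc25a28 was at -0.12 and -0.075, and Slc25a37 at 0.00425 and 0.11, in IH and SH. Over all 23 carriers, 2 were called lower in IH, against 4.85% of all genes, and 8 lower and 1 higher in SH, against 10.5% and 10.2%, with medians of -0.080 and -0.21.

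**Figure D3:**
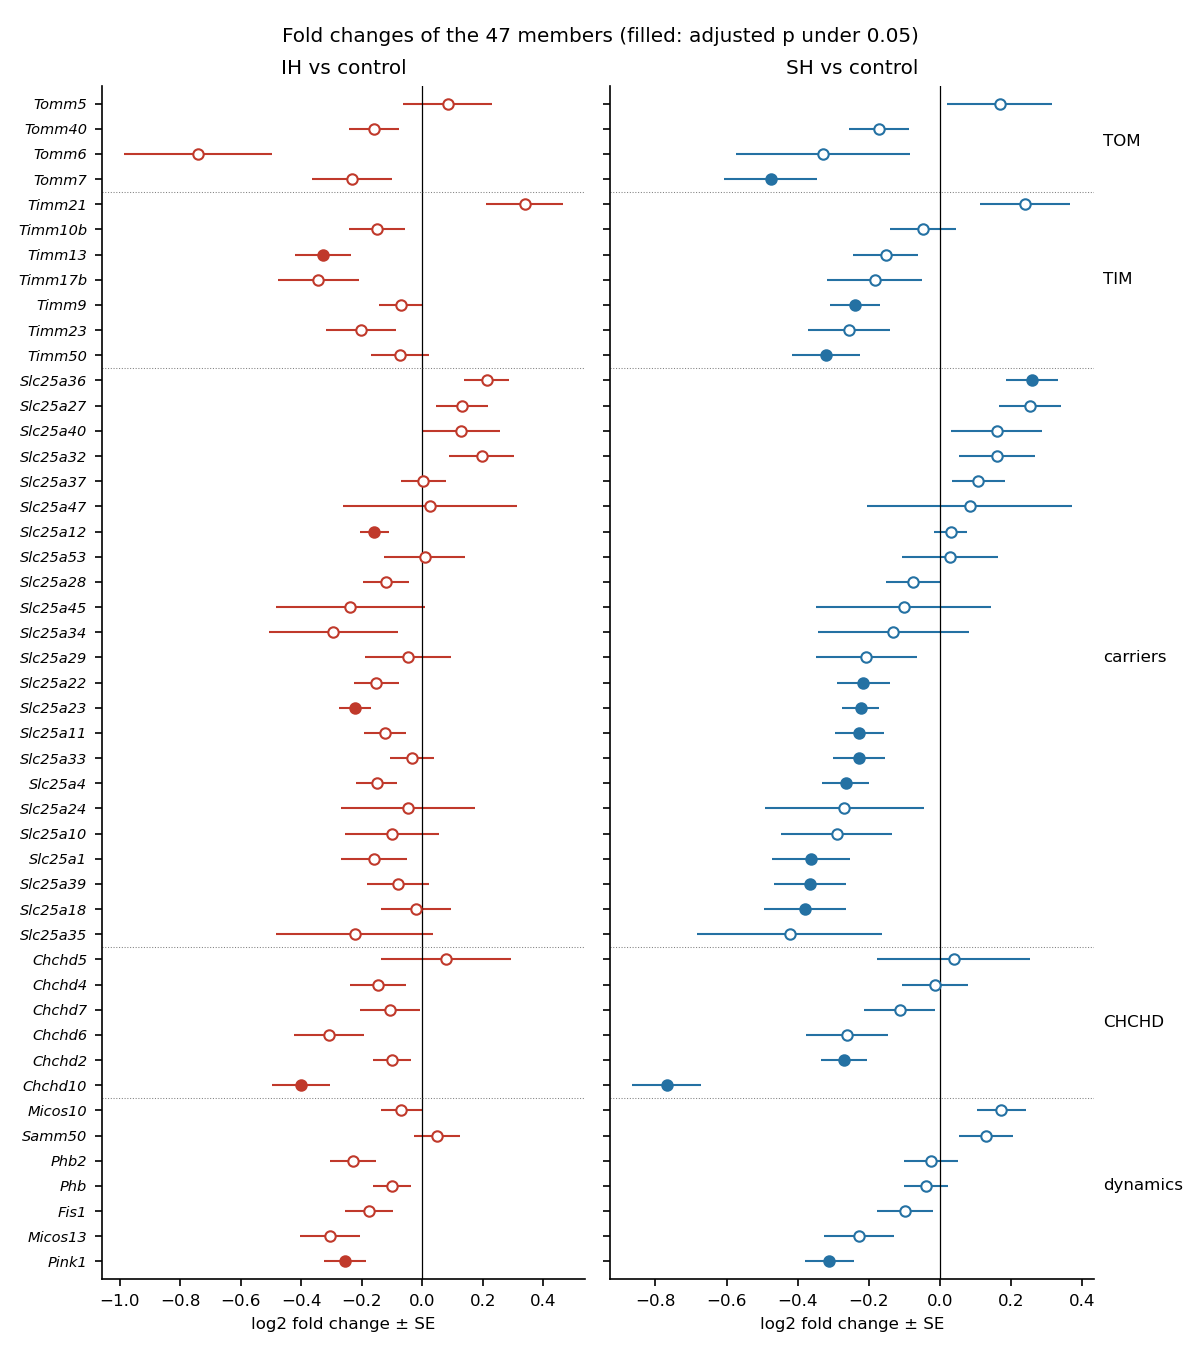
Log2 fold change with its standard error (horizontal axis) of each of the 47 members (vertical axis, by family) in IH vs. control and SH vs. control. Filled points passed an adjusted p of 0.05, and the points left of 0 are 36 in IH and 34 in SH.

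In the outer membrane, the TOM subunit Tomm7 was called lower in SH. TOMM7 is a small subunit that also holds the kinase PINK1 at the TOM complex, and its gene lies on chromosome 5 from 24043831 to 24049245. It had 696, 686, 677 and 652 in the control libraries, 535, 587, 679, 593 and 495 in IH and 366, 445, 576, 436 and 614 in SH normalized counts. All SH libraries were below all control libraries, with a wide spread among them, and IH replicate 3 was within the control range. The log2 fold change was -0.48 (SE 0.13, adjusted p = 0.0204, edgeR) in SH and -0.23 (SE 0.13, adjusted p = 0.242, edgeR) in IH. The SH value was -0.53 (adjusted p = 0.017, edgeR) with the trends removed, and the call was lost without control replicate 1 (-0.46, adjusted p = 0.0528, edgeR). Tomm7 and Tomm5 each have 1 near-identical copy. Tomm40, the pore, had 1577, 1574, 1529 and 1470.1 in the control libraries, 1415, 1338, 1439.7, 1428 and 1267 in IH and 1586, 1182, 1267, 1258 and 1531 in SH normalized counts. All IH libraries were below all control libraries, and SH replicates 1 and 5 reached the control range. Its values of -0.16 (SE 0.084, adjusted p = 0.211, edgeR) in IH and -0.17 (SE 0.084, adjusted p = 0.155, edgeR) in SH did not pass, and they turned to 0.033 (adjusted p = 0.819, edgeR) and 0.11 (adjusted p = 0.327, edgeR) with the trends removed.

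Tomm6 gave the lowest fold change of all members in IH, -0.74 (SE 0.25, adjusted p = 0.0627, edgeR), which did not pass. It is outside the rule for named genes and was singled out after its values were seen. Its normalized counts were 302, 241, 341 and 391 in the control libraries, 205, 147, 184, 197 and 219.7 in IH and 276, 153, 209, 189 and 437 in SH. All IH libraries were below all control libraries, and the SH libraries were spread on both sides, with SH replicate 5 above every control library. It was called lower in IH by DESeq2, with the choroid plexus covariate, in the fit of only IH and control, with the replicate block alone or with the trends removed, and without SH replicate 2 or SH replicate 5. In SH it was called lower with the replicate block and without SH replicate 5.

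Of the inner membrane translocases, Timm13 was called lower in IH and Timm9 and Timm50 in SH. Timm13 and Timm9 are small chaperones of the intermembrane space. Timm13, on chromosome 10 from 80734530 to 80736803, had 798, 836, 815 and 770.4 in the control libraries, 625, 567, 808, 579 and 630.0 in IH and 752, 655, 741, 727 and 745 in SH normalized counts. IH replicate 3 was within the control range and the other 4 IH libraries were below all control and all SH libraries. Its fold change on the log2 scale was -0.33 (SE 0.092, adjusted p = 0.0338, edgeR) in IH and -0.15 (SE 0.092, adjusted p = 0.247, edgeR) in SH. With the trends removed the IH value was -0.21 (adjusted p = 0.141, edgeR), and without IH replicate 3 it was -0.42 (adjusted p = 0.0024, edgeR). Leaving out any other IH library or any control library lost the call.

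Timm9 had 702, 694, 689 and 714 in the control libraries, 588, 712, 679.9, 684 and 668 in IH and 608, 654, 569, 571 and 563 in SH normalized counts. All SH libraries were below all control libraries, and 4 of 5 IH libraries were above all SH libraries. The log2 fold change was -0.24 (SE 0.071, adjusted p = 0.028, edgeR) in SH, -0.070 (SE 0.071, adjusted p = 0.518, edgeR) in IH and -0.31 (adjusted p = 0.0149, edgeR) in SH with the trends removed. The SH call was lost under 7 of 24 alternatives, with adjusted p-values up to 0.0658.

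Timm50, the receptor of the TIM23 complex, had 543, 475, 521 and 591 in the control libraries, 504, 589, 508, 414 and 518 in IH and 409.7, 447, 451, 401 and 425 in SH normalized counts. All SH libraries were below all control libraries, and the IH libraries spread over both groups. The log2 fold change was -0.32 (SE 0.10, adjusted p = 0.0291, edgeR) in SH and -0.072 (SE 0.10, adjusted p = 0.635, edgeR) in IH, and the SH value was -0.10 (adjusted p = 0.609, edgeR) with the trends removed. Timm23, the channel itself, ranged over 444 to 637 in control, 457 to 509 in IH and 378 to 514 in SH. Neither its IH value of -0.20 (adjusted p = 0.245) nor its SH value of -0.26 (adjusted p = 0.123) passed (edgeR), and it has 4 near-identical copies. Timm17b, Timm10b and Timm21 passed in no comparison. Timm21 had the highest fold change of all members in IH, 0.34 (SE 0.13, adjusted p = 0.0902, edgeR), and has 1 near-identical copy.

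Among the genes of quality control and shape, Pink1 was called lower in both groups. PINK1 is the kinase that marks damaged mitochondria for removal, and its gene lies on chromosome 4 from 138039346 to 138053618. Its normalized counts were 7495, 7199, 7539.7 and 7701 in the control libraries, 5786, 5952, 6479, 6714 and 6429 in IH and 6285, 5097, 6094, 6122 and 6561 in SH. All 10 hypoxic libraries were below all 4 control libraries, and IH and SH overlapped. The control group averaged 7484 ± 209 (SD, n = 4), the IH group 6272 ± 388 (SD, n = 5) and the SH group 6032 ± 554 (SD, n = 5). IH vs. control gave a log2 fold change of -0.25 (SE 0.069, adjusted p = 0.0286, edgeR), and SH vs. control gave -0.31 (SE 0.069, adjusted p = 0.00696, edgeR). After removal of the trends it was -0.18 (adjusted p = 0.122, edgeR) and -0.20 (adjusted p = 0.0675, edgeR), below 0 in both and past the threshold in neither. The IH call was also lost without any one of the 4 control libraries and without IH replicate 1 or IH replicate 2, and so held under 17 of 24 alternatives, with adjusted p-values up to 0.122. The SH call held under 23.

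Fis1, an outer membrane adaptor of fission, did not pass, at -0.18 (SE 0.078, adjusted p = 0.146, edgeR) in IH and -0.10 (SE 0.078, adjusted p = 0.392, edgeR) in SH. Without IH replicate 3, which stood above the other IH libraries, the IH value was -0.24 (adjusted p = 0.0345, edgeR), and with the trends removed it was 0.00927 (adjusted p = 0.946, edgeR). Samm50, the core of the machinery that inserts outer membrane barrel proteins, was at 0.049 (adjusted p = 0.683) and 0.13 (adjusted p = 0.226) in IH and SH (edgeR). The prohibitins, which form a ring in the inner membrane, did not pass in IH or SH vs. control: Phb was at -0.10 (adjusted p = 0.283) and -0.038 (adjusted p = 0.694), and Phb2 at -0.23 (adjusted p = 0.064) and -0.025 (adjusted p = 0.841) (edgeR).

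The MICOS subunits Micos10 and Micos13 lay on opposite sides of 0 in SH, with 0.17 (adjusted p = 0.0869) for Micos10 against -0.23 (adjusted p = 0.113) for Micos13 in SH, and -0.069 (adjusted p = 0.515) against -0.30 (adjusted p = 0.0587) in IH, and none of these passed (edgeR). With the trends removed, Micos10 and Phb2 were the 2 members called lower in IH than in SH, against 1.51% of all genes, with log2 fold changes of -0.24 (adjusted p = 0.0339, edgeR) and -0.25 (adjusted p = 0.0383, edgeR), whereas as tested the values were -0.24 (adjusted p = 0.0666) and -0.20 (adjusted p = 0.168). Micos10 is outside the rule for named genes and was singled out after its values were seen.

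Levels spanned a wide range. Per kilobase of transcript, mean normalized counts over all libraries were 5113 for Slc25a4, 3492 for Chchd2, 3013 for Slc25a23, 2130.2 for Fis1, 1978 for Slc25a22 and 1741 for Pink1, the 6 highest of the 46 members with a known transcript. The lowest were 19 for Slc25a24 and 22.7 for Slc25a45. Standard errors in IH vs. control ran from 0.047 for Slc25a12 to 0.26 for Slc25a35 and 0.29 for Slc25a47. Slc25a47 overlaps Slc25a29 on the opposite strand of chromosome 12.

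The genes that work beside the members were read from 3 lists. Of the 7 tested import partners, 1 was called lower in IH and 1 in SH, beside 4.85% and 10.5% of all genes tested, so that a count of 1 is near the background. Romo1, a small inner membrane protein, had 407, 444, 459 and 481 in the control libraries, 375, 336, 326, 381 and 383 in IH and 546, 465, 498, 401 and 497 in SH normalized counts, with a log2 fold change of -0.31 (SE 0.094, adjusted p = 0.0448, edgeR) in IH, 0.11 (SE 0.094, adjusted p = 0.447, edgeR) in SH and -0.42 (SE 0.089, adjusted p = 0.0244, edgeR) in IH vs. SH. Pam16, a regulator of the import motor, had 451, 457, 479 and 425 in the control libraries, 409, 447, 479.5, 417 and 418 in IH and 339, 283, 349, 369 and 301 in SH normalized counts, with -0.063 (SE 0.089, adjusted p = 0.658, edgeR) in IH, -0.47 (SE 0.089, adjusted p = 0.00312, edgeR) in SH and 0.40 (SE 0.085, adjusted p = 0.0224, edgeR) in IH vs. SH. Romo1 was low in IH and Pam16 was low in SH, and the differences between IH and SH passed for both. The Romo1 call in IH held under 8 of 24 alternatives and was lost without any one of the control or IH libraries, and its IH vs. SH call held under 18. The Pam16 calls held under 22 in SH and 20 in IH vs. SH. With the trends removed neither was called against control, at -0.034 (adjusted p = 0.891, edgeR) for Romo1 in IH and -0.22 (adjusted p = 0.104, edgeR) for Pam16 in SH.

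Of the 11 tested partners in cristae, fission, fusion and quality control, 1 was called lower in IH, and 1 lower and 1 higher in SH. Afg3l2, a protease of the inner membrane, was lower in both, at -0.21 (SE 0.049, adjusted p = 0.0138, edgeR) in IH and -0.20 (SE 0.049, adjusted p = 0.00976, edgeR) in SH. Yme1l1, another inner membrane protease, was higher in SH (0.27, SE 0.080, adjusted p = 0.0298, edgeR). With the trends removed Afg3l2 was still called in IH, at -0.17 (adjusted p = 0.0444, edgeR), and the SH values were -0.16 (adjusted p = 0.0551, edgeR) for Afg3l2 and 0.033 (adjusted p = 0.801, edgeR) for Yme1l1. Of the 15 other membrane transporters, 2 were called lower and 1 higher in IH, and 3 lower and 2 higher in SH. Over all genes tested the shares called were 4.85% lower and 6.08% higher in IH, and 10.5% and 10.2% in SH, and whether these small lists differ from them was not tested. Mcu, the pore of the calcium uniporter, was lower in SH with 981, 1027, 933 and 928 in the control libraries, 1001, 955, 944, 944 and 808 in IH and 749, 834, 809, 817 and 762 in SH normalized counts and a log2 fold change of -0.28 (SE 0.070, adjusted p = 0.0111, edgeR). Sfxn5, a sideroflexin, was lower in both, at -0.19 (SE 0.052, adjusted p = 0.0302, edgeR) in IH and -0.23 (SE 0.052, adjusted p = 0.00756, edgeR) in SH. The SH calls of Mcu and Sfxn5 held under all 24 alternatives. In IH the smallest p-value of these transporters belonged to Mtch1 (-0.29, SE 0.069, adjusted p = 0.0157, edgeR), which was also called lower in SH (-0.20, SE 0.069, adjusted p = 0.0475, edgeR). With the trends removed its IH value was -0.11 (adjusted p = 0.183, edgeR) and did not pass. Over the 3 lists the medians were -0.041, -0.060 and -0.026 in IH and 0.11, -0.066 and -0.019 in SH, beside -0.12 and -0.17 for the members.

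The number of members called lower also moved with single libraries. In IH vs. control it was between 1 and 8 when one library was left out, and the share of all genes called lower moved in the same fits. Without control replicate 1 or control replicate 4 it was 1, against 2.73% and 3.29% of all genes. Without control replicate 2, control replicate 3 or IH replicate 2 it was 2, against 2.29%, 3.76% and 3.53%. Without IH replicate 1, 4 or 5 it was 3, against 3.17%, 3.27% and 3.59%. In SH vs. control the count was between 7 and 17. It was 7 without control replicate 1, control replicate 4 or SH replicate 4, against 6.94%, 8.05% and 7.86% of all genes, 9 without SH replicate 2, against 7.78%, and 17 without SH replicate 1, against 11.9%. In IH vs. SH, at least 1 of the 2 calls was lost in every one of these fits except the one without SH replicate 1.

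**Figure D4:**
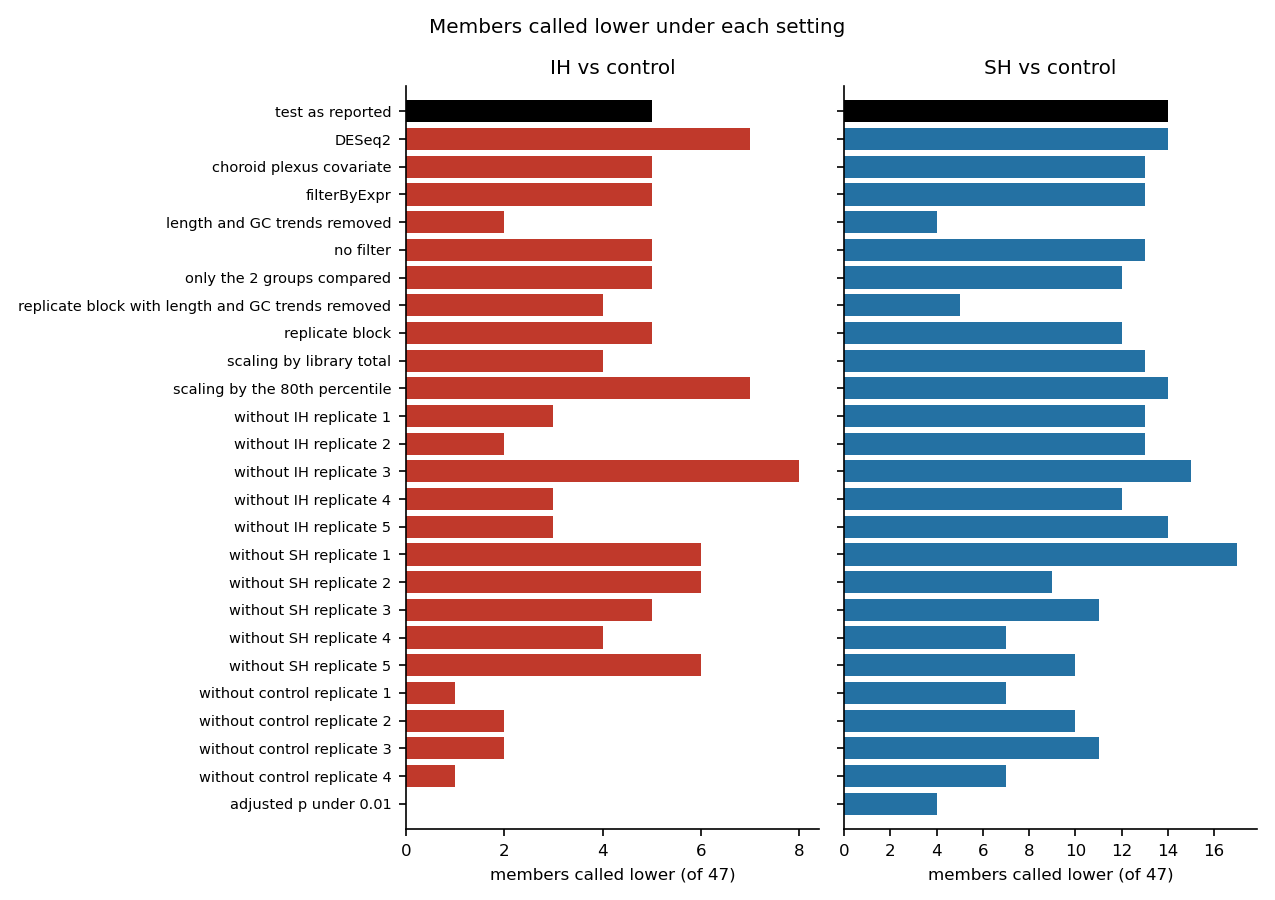
Number of members called lower (horizontal axis) in IH vs. control and SH vs. control under the test as reported, in black, and under each alternative (vertical axis). The counts of 5 and 14 became 2 and 4 with the length and GC trends removed, and fell to 1 and 7 without control replicate 1 or control replicate 4.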

How the data were processed

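The RNA-seq table holds 4 control, 5 IH and 5 SH libraries of hippocampus. Reads had been trimmed with fastp 0.23.4, aligned to GRCm39 with HISAT2 2.2.1 and quantified with StringTie 2.2.1. The values deposited by the authors are estimated counts per gene, not normalized between samples, for 7756 genes. Per the study's methods, these are protein-coding genes that passed a low count limit and whose processed signal lay away from control. Shares of called genes and adjusted p-values are limited to this selection. The selection used the same control group as the tests, so adjusted p-values against control need not hold their nominal rate. The 10 genes with values that were not whole were rounded, and all sample columns were used. Libraries held 7203659 to 11777101 counts in total.

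Groups were compared with the quasi-likelihood test of edgeR 4.0.16 in R 4.3.3 after TMM scaling, with the 3 groups in a single fit. The 7338 genes whose mean count reached 40 in all 3 groups were tested. Benjamini-Hochberg adjustment was over all genes tested, and called means an adjusted p under 0.05. The standard error was taken as the fold change (log2) over the root of its F statistic. For normalized counts, each count was divided by its library's TMM-adjusted size and multiplied by the mean adjusted size.

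The members and lists were chosen with earlier results of these data known. Named genes are the 10 members with the smallest p in each comparison among those called, the 13 core members in the table, and the 2 called genes with the smallest p of each partner list in each comparison. One of these partner genes is not reported here. Others are marked where they appear or given only to complete a family. Gene locations are from GENCODE annotation of GRCm39, in which 46 members were matched. Near-identical copies were found by aligning the members' transcripts to the genome with minimap2 2.31, outside each gene's own location. The promoter sequences are from RefSeq, and the motifs were chosen after the data were examined.

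The alternatives were DESeq2 1.42.0; library scaling by total or by the 80th percentile; the low-count filter left out or replaced by filterByExpr of edgeR; a separate fit for each pair of groups; a block for the replicate number; loess removal of length and GC trends, alone and with the block; choroid plexus markers as a covariate; an adjusted p under 0.01; and each of the 14 libraries left out. No libraries of a group were duplicates, since 26 pairs had a chi-square of at least 8.96 per degree of freedom.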

Additional observations from a re-analysis of the deposited data

Results flagged for a closer look

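Of the 19 members named by the rule, 57 groups of 4 or 5 libraries were examined for a library far from the others of its group, where chance flags about 1 group in 20. IH replicate 3 stood high for 4 members. It had a normalized count of Chchd2 of 3710.0, with the other libraries of the group between 3133 and 3274. Its count of Fis1 was 1858, with the other libraries of the group between 1458 and 1551, that of Slc25a4 was 11130.0, with the other libraries of the group between 9124 and 9683, and that of Timm13 was 808, with the other libraries of the group between 567 and 630.0. This is the library with the steepest dependence of counts on transcript length, and its part in these values was not tested. IH replicate 5 was low for Slc25a23, at 9050.0, with the other libraries of the group between 9857 and 10159. SH replicate 2 was low for Timm13, at 655, with the other libraries of the group between 727 and 752.

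The direct test of IH vs. SH was passed by 2 of these members. Chchd10 was higher in IH than in SH by a log2 fold change of 0.37, where both groups were below control. Slc25a12 was lower in IH than in SH, with a log2 fold change of -0.19, where IH was called below control and SH was not. Both calls were close to the threshold and were lost under more than 10 of 24 alternatives.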

How the results depend on the processing

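Under the alternatives, the direction and the side of the threshold of the named genes were the same in 472 values for IH vs. control, 516 of SH vs. control and 442 of IH vs. SH, a call was lost in 59, 41 and 39, gained in 7, 1 and 3, and the sign turned in 12, 16 and 18. With length and GC trends removed, members called lower numbered 2 for IH vs. control, 4 for SH vs. control and 2 for IH vs. SH (all genes 2.96%, 3.2% and 1.51%), members called higher in SH vs. control numbered 0 (all genes 3.27%), and the medians were -0.042 and -0.093. With the replicate block added to that removal, the counts called lower were 4, 5 and 3 (all genes 2.44%, 3.01% and 1.56%), those called higher 0 for SH relative to control and 3 for IH relative to SH (all genes 3.23% and 1.48%), and the medians -0.031 and -0.077. At an adjusted p under 0.01, 0 members were called lower in IH and 4 in SH relative to control, 0 were called lower in IH relative to SH, and 0 were called higher in any comparison, where all genes gave 1.25%, 4.7% and 0.191% lower and 1.53%, 3.22% and 0.15% higher. DESeq2 called 1, 2 and 2 members higher in the 3 comparisons and 2 lower in IH vs. SH (all genes 8.5%, 12% and 2.52%, and 1.57%). The fit of only the 2 groups compared called 1 higher in IH vs. control, 0 higher in SH vs. control, and 0 lower and 0 higher in IH vs. SH (all genes 5.63%, 8.71%, 0.393% and 0.474%). Members called higher in SH vs. control were 3 with the choroid plexus covariate, 2 without a filter and 2 with scaling by library total (all genes 9.88%, 10.3% and 12%). In IH vs. SH, 0 were called lower with that covariate, and 0 higher without a filter or with filterByExpr (all genes 0.845%, 1.25% and 1.26%).

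Replicate numbers were not treated as pairs, since the labels do not say that a number marks a shared animal, cage or day. The 13 pairs of libraries with the same number had correlations of their deviations from -0.296 to 0.466, with 6 above 0.1. Libraries with different numbers were not compared in this way, so these values do not decide whether numbers mark pairs. With the replicate block, IH vs. control had 5 members called lower and 1 higher, SH vs. control 12 lower and 1 higher, and IH vs. SH 1 lower and 2 higher. All genes gave 4.51%, 10.1% and 0.831% lower and 5.55%, 9.59% and 1.19% higher. The medians of the members were then -0.091, -0.18 and 0.00102.

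When one library was left out, members called lower numbered 1 to 8 for IH vs. control, 7 to 17 for SH vs. control and 0 to 1 for IH vs. SH, and those called higher 0 to 1, 0 to 3 and 0 to 1, with all genes at 2.29 to 6.6%, 6.94 to 11.9% and 0.478 to 0.875% lower and 2.84 to 6.72%, 5.41 to 11.9% and 0.628 to 1.56% higher. The members' medians ranged over -0.16 to -0.10, -0.19 to -0.14 and -0.019 to 0.032.

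No called value of a gene named by the rule changed its sign under any alternative. Uncalled values that turned with the trends removed, first without and then with the block, were, in IH vs. control, Chchd2 0.041 and 0.048, Fis1 0.00927 and 0.018, Slc25a39 0.043 and 0.051, Timm50 0.081 and 0.066 and Tomm40 0.033 and 0.022. In SH vs. control they were Fis1 0.12 and 0.13, Phb2 0.16 and 0.17, Slc25a12 -0.095 and -0.072, Timm13 0.023 and 0.017 and Tomm40 0.11 and 0.10, and in IH vs. SH Slc25a23 -0.034 and -0.034 and Tomm40 -0.077 and -0.074. Chchd4 in SH vs. control turned to 0.00704 with the choroid plexus covariate, 0.036 with the replicate block and 0.00906 with scaling by library total, and Slc25a23 in IH vs. SH to -0.000354 with filterByExpr and -0.00246 without a filter. With single libraries left out, uncalled values that turned ranged over -0.00492 to 0.091 for Samm50 and -0.13 to 0.000833 for Slc25a39 in IH vs. control, -0.069 to 0.045 for Chchd4 and -0.067 to 0.038 for Phb2 in SH vs. control, and -0.018 to 0.028 for Slc25a23, -0.00789 to 0.10 for Timm23 and -0.035 to 0.073 for Tomm40 in IH vs. SH. The cause of these changes was not tested. An adjusted p above the threshold does not show that a member was unchanged.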
